A study of Mus musculus with 4 samples.

Results

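The loci of Klf4 and Myc were covered by 424 of the 48316 probes of a mouse tiling array, taken by position (build mm9). The loci themselves were chosen with earlier results of these data known. The Klf4 locus held 282 probes between chr4:55523774 and 55549886, and the Myc locus held 142 probes between chr15:61814535 and 61825952. Within each locus the gene body was the interval where the gene lies approximately, chr4:55540000-55545000 for Klf4 and chr15:61816000-61821000 for Myc, and the remaining probes were its flanks. Each gene body held 64 probes of 60 bases. The edges of both intervals are approximate, since no annotation of mm9 was used.

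Nuclear RNA was measured in 46c mouse embryonic stem cells (ESC) grown in supplemented GMEM, and in neural progenitor cells (NPC) derived from the same line by N2B27 differentiation, with 2 arrays per group. 46c carries a fluorescent reporter of neural commitment, and both groups come from this 1 line. RNA was taken from a native chromatin preparation of nuclei, amplified and labelled with Cy3 by random priming, so the signal does not separate the strands. Whether the arrays of a group stem from separate cultures is not stated. Each p-value therefore reflects the spread between these samples alone, and that spread may be technical. All 4 arrays were on 1 slide.

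Klf4 encodes a zinc finger transcription factor that belongs to the circuit that keeps embryonic stem cells pluripotent, and its expression there is sustained by LIF signalling. Myc encodes a basic helix-loop-helix leucine zipper factor that drives growth and division in proliferating cells of many types, neural progenitors among them. Both factors belong to the set first used with Pou5f1 and Sox2 to reprogram somatic cells to pluripotency. A tiling array of nuclear RNA reads introns and flanking transcripts together with exons.

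One of the 2 members had an entry in the RefSeq promoter table (GRCm38.p6). The promoter of Klf4 is shown because the fall of its RNA, given below, differed along the gene and was smallest at this end. The gene is on the minus strand there, and the printed window covers chr4:55532426-55532725 of that build, 5′ to 3′ in the direction of the gene, with its last bases inside the transcript. Capitals mark GGGCGG and CACGTG, read on both strands.
Klf4 promoter: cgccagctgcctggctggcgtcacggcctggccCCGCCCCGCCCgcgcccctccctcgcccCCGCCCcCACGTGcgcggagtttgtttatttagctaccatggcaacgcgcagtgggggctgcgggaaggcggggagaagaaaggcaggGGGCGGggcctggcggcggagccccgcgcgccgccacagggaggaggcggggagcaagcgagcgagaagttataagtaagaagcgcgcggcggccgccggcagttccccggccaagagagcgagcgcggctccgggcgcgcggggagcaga
GGGCGG, the core of a GC box, occurred 4 times, and 35.7% of the 32851 promoters in the table hold it. CACGTG, an E-box of the kind that Myc and related factors bind, occurred 1 time, and 7.15% of the promoters hold it. Neither TATAAA (in 13.6% of the promoters) nor CCAAT (in 37.4%) occurred in this window. These matches are descriptions of letters, not of binding.

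The labels of the samples were set against marker loci placed by approximate mm9 position. Of the ESC genes Pou5f1, Nanog and Fgf4, all 3 were lower in NPC, while Npas3, a neural gene, rose by 2.06 (SE 0.27, limma adjusted p = 0.00816), a call lost without ESC 1 (0.114) and without ESC 2 (0.115). Sox2, the other NPC marker, is also expressed in ESC. It was not called in either direction, with a change of -0.46 (SE 0.70, limma adjusted p = 0.586). The 2 NPC arrays differed from each other at Pou5f1, at -1.01 and -2.49, and at Sox2, at -0.02 and 1.96. All levels here are log2 intensity minus the 75th percentile of the array, taken over the 15356 probes that passed the scanner program's test of being well above background in every array, and a change is NPC minus ESC. The median change of the 963 windows of 5 kb on the array was -0.34, and with the median of the SRN control spots as scale it was 0.26. A probe at the floor of every array changes by -0.39 from the scaling alone. The window median may hold such an offset, which was not tested, so it is given for reference only.

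Over the Klf4 gene body nuclear RNA fell sharply in NPC. The mean level was 0.13 in ESC 1 and 0.15 in ESC 2, against -2.70 in NPC 1 and -2.79 in NPC 2. The groups did not overlap, and the arrays within each group lay close together. The change was -2.88 (SE 0.13), a 7.38-fold higher level in ESC (limma over 977 windows and segments, Benjamini-Hochberg adjusted p = 0.00325). Of these 977 rows, 30.9% were called lower in NPC at an adjusted p under 0.05, and 21.8% were called higher, but this split moved with the scaling: of the 963 windows alone, 283 were lower and 212 higher here, 26 and 304 with the SRN control spots as scale, 66 and 226 with the percentile taken without chromosome 12, and 619 and 194 with the percentile over all probes. Of the 963 windows, 2 changed by as much as the Klf4 body or fell by more. The window with the same probes as the body is among these 2. With the 39 probes that every array measured above background the change was -2.42, or 5.35-fold; with normexp it was -1.59. Both arrays of a group entered the fit as bulk samples, in which fewer cells with a transcript and less RNA per cell cannot be told apart.

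Signal over the Klf4 body did not vanish in NPC. Probes well above background numbered 58 and 61 of 64 in ESC 1 and ESC 2, and 44 and 43 in NPC 1 and NPC 2. As shares these were 93.0% ± 3.31 in ESC and 68.0% ± 1.1 in NPC (SD, n = 2). In 10 probes both ESC arrays and neither NPC array passed, and in no probe was the reverse seen. This count was not made over all probes of the array, so no excess can be read from it.

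The Myc gene body fell too, by less. Its mean level was -1.06 in ESC 1 and -0.97 in ESC 2, against -2.16 in NPC 1 and -2.40 in NPC 2. The groups did not overlap here either. The change was -1.26 (SE 0.15), a 2.40-fold higher level in ESC (limma adjusted p = 0.00702), and 37 of the 963 windows fell by more. Over the 36 probes that every array measured above background the change was -1.1, or 2.14-fold; with normexp it was -0.70 and with the SRN control spots as scale -0.66. Relative to the median of all windows the change was -0.92 for Myc and -2.55 for Klf4. Both bodies lost their call without ESC 1 (limma adjusted p = 0.113 for both) and without ESC 2 (0.115 for both), with changes between -2.93 and -2.84 for Klf4 and between -1.38 and -1.14 for Myc over the fits that left out 1 array.

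Most of the Myc body remained detected in NPC. Probes well above background numbered 54 of 64 in each ESC array, 47 in NPC 1 and 44 in NPC 2, or 84.4% in both ESC arrays and 71.1% ± 3.31 in NPC (SD, n = 2). In 5 probes both ESC arrays and neither NPC array passed, again without a count over the array to set beside it. The shares left in NPC were thus near those of Klf4, while the falls in level were not.

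**Figure D1:**
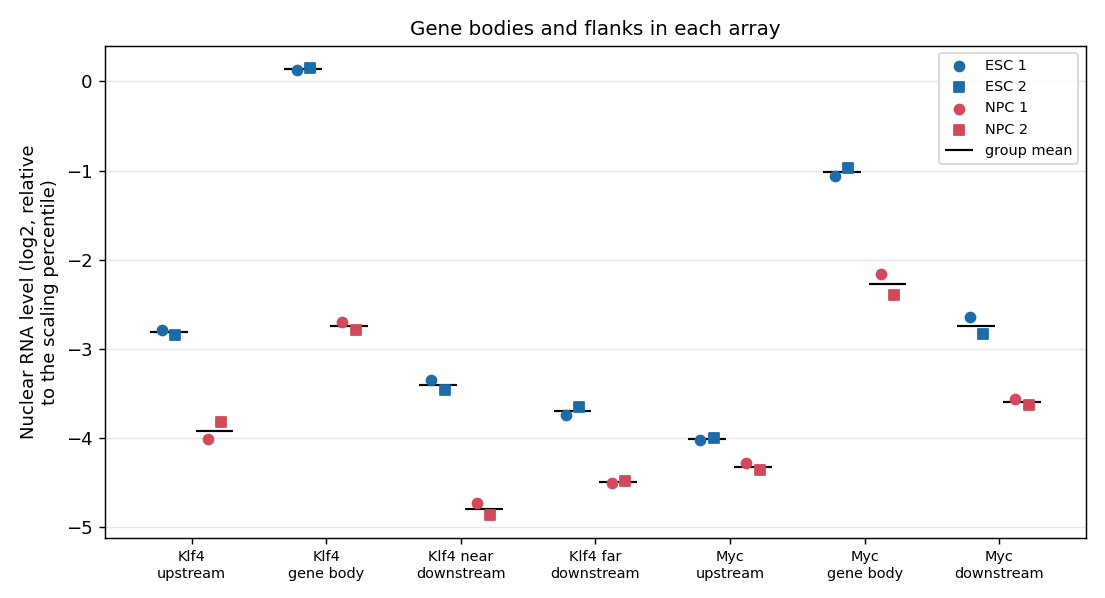
Mean nuclear RNA level (log2, relative to the scaling percentile) of each gene body and flank in ESC (blue) and NPC (red), with a point per array and a line at the group mean. The Klf4 body went from 0.14 in ESC to -2.74 in NPC and the Myc body from -1.02 to -2.28; levels of different segments come from different probes and are not compared with each other.

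The contrast of the genes was made inside each array, where the scaling of the array cancels. The Klf4 body minus the Myc body was 1.19 in ESC 1 and 1.12 in ESC 2, and -0.55 in NPC 1 and -0.39 in NPC 2. Only the change of this difference can be read, since the genes have different probes. Klf4 therefore fell by 1.62 more than Myc on the log2 scale (-1.62, SE 0.14), a 3.08-fold stronger fall, with a limma adjusted p of 0.00606 when the difference is a row of the table of all windows. The planned fit, which subtracts Myc from every row, gave 1.64e-09, and that value is too small because all rows then share the spread of Myc; in that fit 1.64% of rows were called lower and 89% higher. An exact permutation test of 2 against 2 arrays gave p = 0.333, the smallest it allows. The difference was -0.89 with normexp, and -1.32 with the probes that every array measured.

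The fall of Klf4 differed along the gene. In bins of 1 kb, starting at the end where transcription begins, the changes were -1.76 (SE 0.23), -2.58 (SE 0.24), -2.80 (SE 0.24), -3.58 (SE 0.25) and -4.91 (SE 0.23). Each bin toward the 3′ end thus fell by more than the one before it. All 5 were called lower (limma over 4216 bins of the array, largest adjusted p 0.00268), against 9.16% of all bins called lower and 19.9% called higher. The 1 kb bins were added after the data had been seen.

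At the 3′ end, chr4:55540001-55541000, the level was 1.06 and 1.07 in ESC 1 and ESC 2 and -3.75 and -3.94 in NPC 1 and NPC 2, a change of -4.91 over 10 probes. Of these, 3 were above background on all arrays, and 50% and 60% were so in NPC 1 and NPC 2. With dim NPC values raised to the lowest signal above background of the array, the level was at least 19.1-fold higher in ESC under the scaling used here. This bound and those given below for single probes were not computed under the other scalings. At the 5′ end, chr4:55544001-55545000, the level was -0.88 and -1.01 in ESC, against -2.72 and -2.67 in NPC, 3.38-fold higher in ESC over 17 probes. Split at its middle, the gene body fell by 4.01 on the log2 scale in its 3′ part (23 probes) and by 2.25 in its 5′ part (41 probes). Within each array the 3′ part minus the 5′ part was -0.43 and -0.34 in ESC, against -2.05 and -2.26 in NPC. This split was chosen with the values known and carries no test. In NPC 11 and 10 of the 23 probes of the 3′ part were above background, against 33 of 41 in each array for the 5′ part. The difference between the parts went from -1.76 to -2.09 with the probes that every array measured and to -2.07 with dim probes left out. It was -1.01 with the authors' values and -0.66 with normexp.

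Over the Myc body the changes followed no steady order. From its 5′ end the 1 kb bins changed by -0.51 (SE 0.22), -1.71 (SE 0.31), -1.19 (SE 0.25), -1.26 (SE 0.25) and -1.54 (SE 0.34). The first missed the threshold (limma adjusted p = 0.132), whereas the other 4 were called. The 5′ part changed by -1.19 and the 3′ part by -1.32, and within arrays the 3′ part minus the 5′ part was 1.87 and 1.90 in ESC, against 1.62 and 1.88 in NPC. The groups overlap in this measure, and the difference of -0.13 was 0.091 with dim probes left out, -0.33 with the authors' values, -0.34 with normexp and -0.40 with the median over probes. With normexp, the value of -0.66 for Klf4 stands beside that -0.34, so the genes differ much less in this measure there.

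Over 2 bins of the Myc locus nearly all probes stayed above background in NPC, though both bins fell. At chr15:61819001-61820000 the level was 1.77 and 1.55 in ESC, against 0.22 and 0.58 in NPC, and all 14 probes were above background on all 4 arrays. At chr15:61821001-61822000, just past the approximate end of the gene body, it was 1.61 and 2.11 in ESC, against 0.06 and 0.65 in NPC, with 10 of 11 probes above background on all arrays. The changes there were -1.26 (SE 0.25) and -1.51 (SE 0.31), both called. The protein of Myc is encoded by its later exons; which probes lie in exons was not determined here. With both gene bodies widened by 1 kb on each side, which takes in the second of these bins, Myc changed by -1.13 and Klf4 by -2.58. The Klf4 body held a bin of this kind too, chr4:55543001-55544000, with 14 of 16 probes above background on all arrays.

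**Figure D2:**
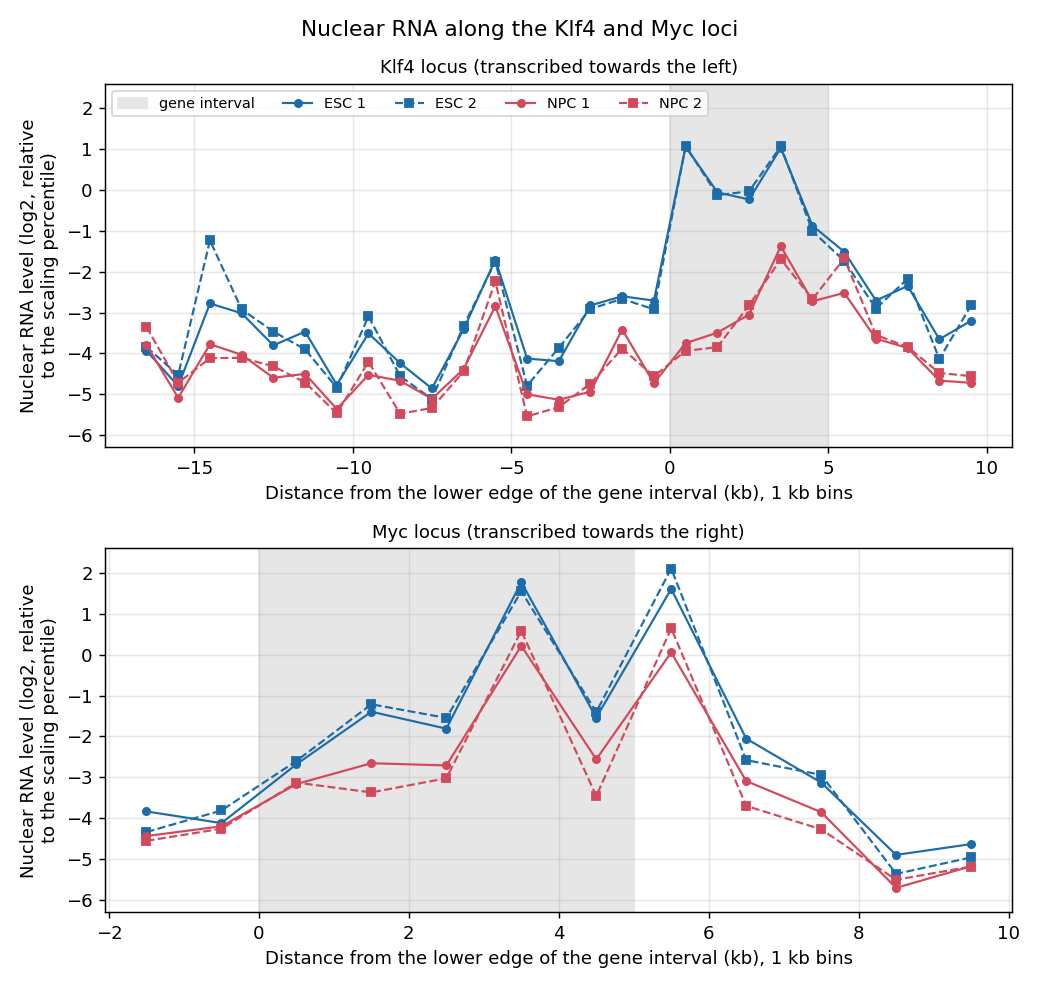
Mean nuclear RNA level (log2, relative to the scaling percentile) in bins of 1 kb along the Klf4 locus (top) and the Myc locus (bottom), against the distance from the lower edge of the gene interval (grey), with a line per array. The ESC and NPC lines are farthest apart at the 3′ end of Klf4, at 1.07 and -3.84 on average, while over the Myc body the bins changed by -0.51 to -1.71; heights of different bins come from different probes.

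Single probes differed in number between the genes. Of 63 Klf4 body probes tested, 31 (49.2%) were called lower and 0 higher, against 1.58% of 47900 probes of the array called lower and 10.8% called higher (limma, Benjamini-Hochberg over all probes). Of 63 Myc body probes, 4 (6.35%) were called lower and 0 higher. At an unadjusted p under 0.05 the lower counts were 48 and 18, and 0 probes were higher in either body. The Klf4 count was 20 with the replicate number as a block and 12 with a common floor. The Myc count moved with the setting: it was 17 without NPC 1, 9 without NPC 2, and 1 without either ESC array.

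Among Klf4 probes measured on all 4 arrays, chr4:55540843-55540902 read 3.81 and 3.52 in ESC, against -1.92 and -1.0 in NPC. That is a 34.9-fold higher level in ESC (change -5.13, SE 0.44, limma adjusted p = 0.0108). Another such probe, chr4:55541018-55541077, changed by -5.16 (SE 0.80). The probe at chr4:55540228-55540287 was above background in both ESC arrays and not well above background in NPC, and its level was at least 17.2-fold higher in ESC. Such a bound sets the ESC mean against the higher of the dim probe's own value and the lowest signal above background of each NPC array. It holds for the scaling used here only. Near the 5′ end, chr4:55544487-55544546 read -0.02 and 0.17 in ESC, against -3.47 and -3.09 in NPC, a change of -3.35 (SE 0.32).

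The 4 called Myc probes lay at chr15:61817435-61817494, 61817699-61817758, 61817879-61817938 and 61820184-61820243. The second of them was measured on all arrays, at -0.40 and -0.48 in ESC, against -1.91 and -2.12 in NPC, a change of -1.58 (SE 0.29, limma adjusted p = 0.0465). The other 3 were not well above background in NPC, and the largest bound among them was at least 2.88-fold. None of the 4 lay in the bin at 61819001. One probe of that bin, chr15:61819309-61819368, read 0.99 and 0.93 in ESC, against 0.70 and 1.38 in NPC, and its groups overlapped.

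**Figure D3:**
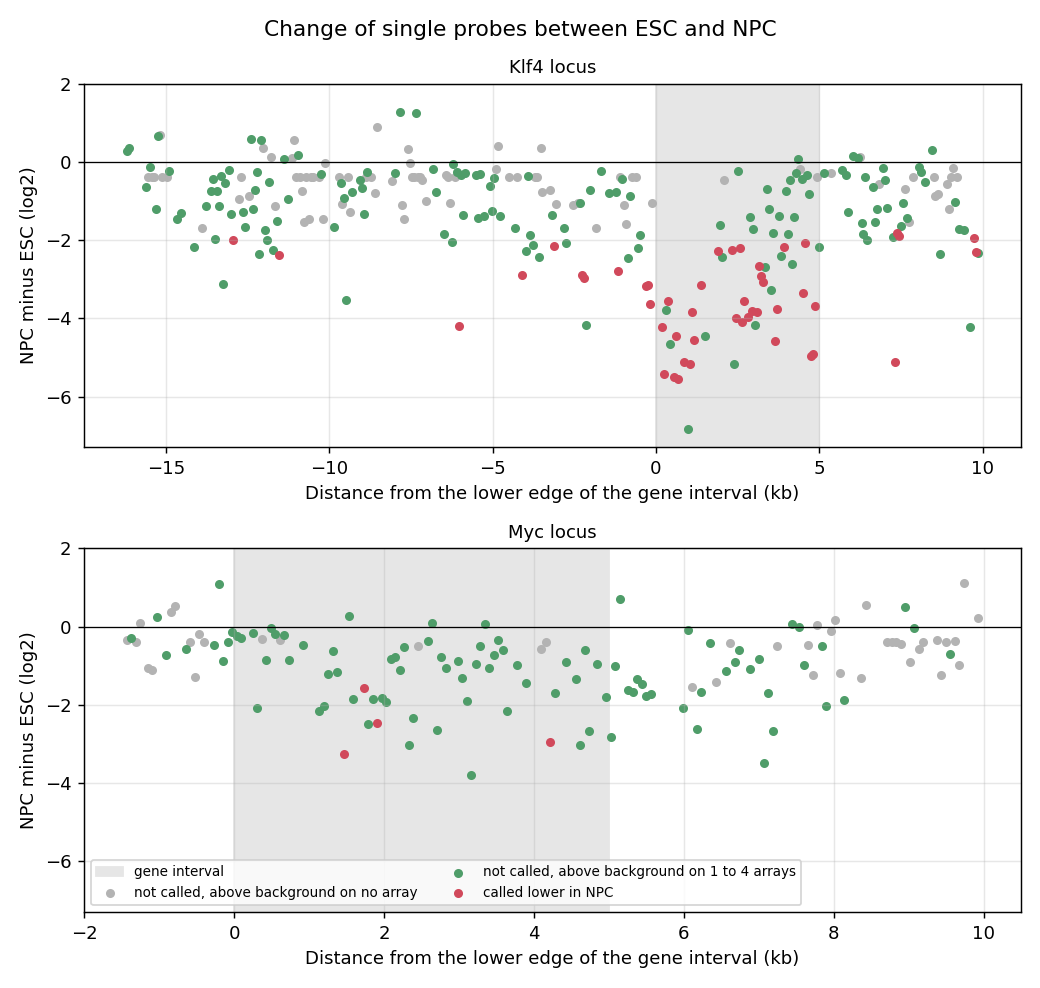
Change of each probe (NPC minus ESC, log2) against the distance from the lower edge of the gene interval (grey) in the Klf4 locus (top) and the Myc locus (bottom). Red points were called lower in NPC, 31 of 63 tested in the Klf4 body and 4 of 63 in the Myc body; grey points were above background on no array, and those in a row near -0.39 sit at the floor of all arrays.

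The flanks of both genes fell too. Over the 218 flank probes of Klf4 the level was -3.44 and -3.43 in ESC, against -4.44 and -4.42 in NPC, a change of -1.0 (SE 0.12, limma adjusted p = 0.00727). Over the 78 flank probes of Myc the arrays read -3.0 and -3.14 for ESC, then -3.74 and -3.82 for NPC, a change of -0.72 (SE 0.13, adjusted p = 0.0170). These probes include the bright bin at chr15:61821001-61822000, which changed by -1.51. With the gene interval widened by 1 kb, which leaves that bin out, the Myc flanks changed by -0.71. Around Klf4 the share of probes well above background was 49.3% ± 1.62 for ESC and 37.8% ± 6.81 for NPC (SD, n = 2). Around Myc the shares were 46.8% ± 4.53 and 42.3% ± 1.81 (SD, n = 2). A probe at the floor of every array shows a change of -0.39, since the floors differ after scaling; 32 flank probes of Klf4 and 6 of Myc were of this kind. With a common floor the flank changes were -0.84 and -0.60, and with the probes that every array measured -0.84 and -0.92. With the SRN control spots as scale they were -0.40 and -0.12, and neither was called. The flank calls were lost without either ESC array.

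By side, the near downstream flank of Klf4, the 5 kb past its 3′ end, went from -3.35 and -3.46 in ESC to -4.73 and -4.87 in NPC, a change of -1.39 (SE 0.14, limma adjusted p = 0.00618). The far downstream flank changed by -0.80 (SE 0.13) and the upstream flank by -1.1 (SE 0.14), both called (adjusted p = 0.0114 and 0.00771). With the gene interval widened by 1 kb the near downstream and upstream flanks changed by -1.16 and -1.17, and with normexp by -0.46 and -0.45, so their order is not settled. With the SRN spots as scale the far downstream (-0.20, adjusted p = 0.356) and upstream (-0.50, adjusted p = 0.0556) calls were lost. For Myc, the downstream flank changed by -0.86 (SE 0.14, adjusted p = 0.0125); it was not called with the SRN spots (adjusted p = 0.233) or the median over probes (0.0676). The Myc upstream flank read -4.02 and -4.0 in ESC, against -4.28 and -4.36 in NPC, and its change of -0.31 (SE 0.13) did not pass (adjusted p = 0.0920). That change is near the median of all windows. It was 0.29 with the SRN spots as scale, and it passed as lower with the authors' values (-0.50, adjusted p = 0.0251), with the percentile over all probes (-0.70, 0.00438) and without NPC 1 (-0.35, 0.0497).

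Single flank sites of Klf4 fell steeply. In the 1 kb just past the gene interval, chr4:55539001-55540000, the change was -1.83 (SE 0.24), and 3 adjacent probes from 55539677 to 55539856 fell by 3.15 to 3.64 on the log2 scale. Upstream, 3 adjacent probes from chr4:55547294 to 55547473 were called, with levels of 0.09 and 0.12 in ESC and not well above background in NPC for the first, at least 15.6-fold higher in ESC. The second of them went from -0.52 and -0.44 to -2.45 and -2.13, and the third from -0.06 and -0.15 to -2.15 and -1.85. A pair farther out, from 55549707 to 55549826, changed by -1.95 (SE 0.28) and -2.30 (SE 0.28). In all, 16 of 215 flank probes of Klf4 (7.44%) and 0 of 77 of Myc were called lower (limma, 1.58% over the array), with 52 and 16 at an unadjusted p under 0.05, and 0 higher in either. Of the 16 called, 3 were well above background on no array, 2 of them among the 3 far downstream.

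Other flank bins missed the threshold. The bin at chr4:55545001-55546000, next to the 5′ edge of the Klf4 interval, read -1.51 and -1.73 in ESC, against -2.52 and -1.68 in NPC. Its groups overlapped, and the change of -0.47 (SE 0.33, 5 probes) did not pass (limma adjusted p = 0.297). The bin at chr4:55534001-55535000 read -1.71 and -1.75 in ESC, against -2.85 and -2.24 in NPC, a change of -0.81 (SE 0.28, adjusted p = 0.0763). The bin at chr4:55523001-55524000 held 2 probes and was not tested, with a change of 0.32. Of the 21 flank bins of Klf4 that were tested, 12 were called lower, and of the 7 of Myc, 3, against 9.16% of all bins (limma). In either locus 0 were higher, also at an unadjusted p under 0.05. These counts rest on the ESC arrays: over the whole Klf4 locus 17 bins were called lower, but 5 without ESC 1 and 0 without ESC 2, and the 7 of the Myc locus became 0 without either. They were 9 and 1 with the SRN spots as scale and 4 and 4 with the probes that every array measured; for Myc the count was also 3 where bins took the median probe and 11 where the percentile covered all probes.

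Set against its own flanks within each array, the Klf4 body fell by more than its flanks, and the Myc body was at the threshold. The body minus the flanks went from 3.57 in both ESC arrays to 1.74 and 1.64 in NPC 1 and NPC 2 for Klf4, a change of -1.88 (SE 0.13, limma adjusted p = 0.00188, with 1.84% of the rows of that fit called lower and 70.1% higher; 0.00607 as a row of the main table). For Myc it went from 1.94 and 2.16 to 1.59 and 1.42, a change of -0.54 (SE 0.18), with an adjusted p of 0.0540 in the planned fit (3.48% of rows called lower and 35.5% higher) and 0.0427 as a row of the main table, which passes. The Myc value was at -0.18 with the probes that every array measured (adjusted p = 0.272) and passed without NPC 1 (-0.63, adjusted p = 0.0236). With the gene intervals widened by 1 kb, the bin at chr15:61821001-61822000 counts to the Myc body and not to its flanks. The Myc body minus its flanks then changed by -0.41 (limma adjusted p = 0.248). The flanks of the genes, compared with each other, differed in change by -0.28 (SE 0.17, adjusted p = 0.219).

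Beside other pluripotency loci of the array, the change of -2.88 at Klf4 was nearest that of Fgf4. The change of -1.26 at Myc was nearest that of Nanog. The fixed list held Pou5f1, Nanog and Sox2, transcription factors of the same circuit, and Fgf4, a growth factor gene that they activate. Of these 4, 3 were called lower and 0 higher (limma, 30.9% of rows called lower). Fgf4 changed by -2.58 (SE 0.13), Pou5f1 by -2.21 (SE 0.51) and Nanog by -1.61 (SE 0.16), with adjusted p = 0.00409, 0.0271 and 0.00618; Pou5f1 missed the threshold with the SRN spots as scale (-1.61, adjusted p = 0.0690). Sox2, which neural progenitors also express, read 1.72 and 1.14 in ESC, against -0.02 and 1.96 in NPC, a change of -0.46 (SE 0.70, adjusted p = 0.586) that turned to 0.53 without NPC 1 and passed without NPC 2 (-1.45, adjusted p = 0.00491). Pou5f1, Nanog and Fgf4 all lost their call without either ESC array. In the mean of the gene body, neither Klf4 (-2.70 and -2.79) nor Myc (-2.16 and -2.40) differed between the NPC arrays as Pou5f1 did. Parts of the Myc body differed more, as at chr15:61820001-61821000, with -2.56 in NPC 1 and -3.46 in NPC 2. Differences in change between these genes and Klf4 or Myc were not tested.

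**Figure D4:**
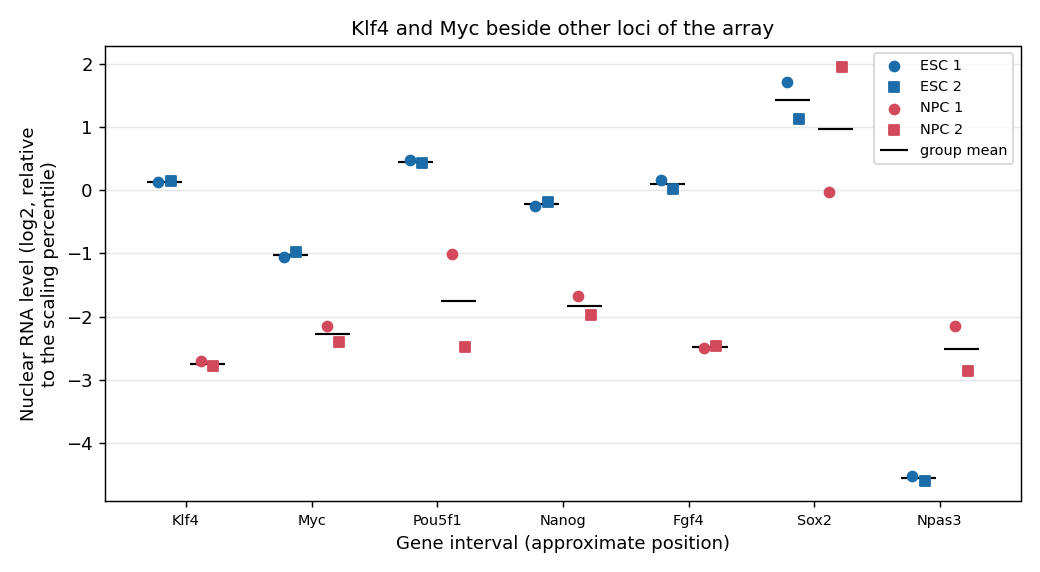
Mean nuclear RNA level (log2, relative to the scaling percentile) over the Klf4 and Myc bodies and over 5 other loci placed by approximate position, with a point per array and a line at the group mean. Klf4, Fgf4, Nanog and Pou5f1 were lower in NPC without overlap, as was Myc, Npas3 was higher, and the NPC arrays of Sox2 lay on both sides of the ESC arrays.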

How the data were processed

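The authors' deposited scanner files give spot intensity in 1 colour. The program was Feature Extraction 11.5.1.1 from Agilent (per the file headers), with background subtracted; the lowest value repeats on each array, as at a floor. Its yes or no marks (unit other, per the file headers) were used for detection above background, for saturation and for outliers. The authors' deposited series table on a log2 scale (made with limma, per the submitters' processing notes, normalization not given in the sources used here) served only as an alternative. Control spots (3188) and outlier values (6 among the 424 probes) were left out; none of the 424 was saturated. Under 50% of all probe values were well above background (48.9%), hence the scaling percentile described in the report. Probe values were averaged per array over windows with at least 5 probes and over the segments, and fitted with limma 3.58.1 in R 4.3.3 (lmFit, eBayes, group as single term), with Benjamini-Hochberg adjustment over all 977 overlapping rows, 4216 bins or 47900 probes. The fit was tested on simulated data. Normexp used the median spot signal, with an offset of 50. Arrays limit precision by their number. Same-numbered arrays did not deviate together (correlation -0.028 across probes), so numbers were not used as pairs. Named loci were Klf4, Myc and a fixed list (Pou5f1, Nanog, Sox2, Fgf4, with Npas3 as a marker), by approximate position. Named bins and probes were those called or with the largest change, and any others were chosen after their values were seen. Members and lists were chosen with earlier results of these data known. Figures were drawn with matplotlib 3.10.9.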

Additional observations from a re-analysis of the deposited data

How the results depend on the processing

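The Klf4 and Myc bodies kept their direction in all 19 alternatives and their call in 17 each. The difference between them kept its direction in all 16, from -2.0 to -0.89. Its calls are not counted, since all but the fit as a row used the planned fit, in which all rows share the spread of Myc. Klf4 flanks changed by -0.40 with SRN control spots and Myc flanks by -0.12, and Myc flanks by -0.78 where probes were summarised by their median and by -0.50 where the percentile left out chromosome 12; these 4 were not called. The Myc body minus its flanks passed with normexp (-0.33), a common floor (-0.62) and as a row of the main table (-0.54). Klf4 body probes called lower were 20 with the replicate block and 12 with a common floor; those of Myc were 1 with the block or SRN spots, 8 with dim probes left out, and 2 with a common floor, the trend prior, the percentile without chromosome 12 or probes above background on all arrays; over both loci they were 27 with the block and 26 with a common floor, against 51. Bins called lower with the block were 15 of the Klf4 locus against 17 and 6 of the Myc locus against 7, and no other call changed; it is no pairing, since same-numbered arrays did not deviate together, and gave adjusted p = 0.00120 and 0.00474 for the Klf4 and Myc bodies (limma). Signs turned for the Myc upstream flank (0.29) and Sox2 (0.14) with SRN spots, for Sox2 without NPC 1 (0.53, against -1.45 without NPC 2) and for the Myc 3′ minus 5′ part with dim probes left out (0.091). Fits that dropped 1 array, in which the remaining array of that group takes its spread from the others, gave -2.93 to -2.84 for the Klf4 body, -1.38 to -1.14 for the Myc body, -1.70 to -1.54 for their difference, -1.01 to -0.99 for Klf4 flanks, -0.79 to -0.65 for Myc flanks, -1.93 to -1.83 and -0.66 to -0.43 for body minus flanks, 24 to 41 and 1 to 17 body probes, 36 to 100 probes of both loci, and 0 to 4 comparison loci lower. The common floor, the fit of differences as rows and the set of probes above background on all arrays were chosen after seeing the data. The cause of these changes was not tested.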
